A study of Mus musculus with 4 samples.

Results

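The genes described here encode the INK4 family of CDK inhibitors, Cdkn2a, Cdkn2b, Cdkn2c and Cdkn2d. They were chosen by name, and every non-control probe whose design accession is a RefSeq transcript of one of them was taken. This gave 6 probes of the 26439 tested, for 4 of the 12296 tested genes with a symbol. All 4 genes were measured on 4 two-colour mouse arrays, which together formed 1 slide. The cells were lines, isolated as clones that became immortal by themselves, from fetal liver transduced with p185 BCR-ABL1, the fusion tyrosine kinase of acute lymphoblastic leukaemia, and their RNA came from asynchronous cultures. R/R lines were homozygous for Cdk4 R24C and for Cdk6 R31C, wild-type (WT) lines had neither knock-in, and both were of mixed C57BL/6J x CD-1 background. R/R clones 1, 2 and 3 were each labelled with Cy5 and set against a WT pool in Cy3, and an R/R pool in Cy3 was set against the WT pool in Cy5. Each clone is a single line, the identifiers of clones 1 and 2 share their first number, and the labels do not say how many lines the pools held. The same WT pool lay on every array, so the spread of the control between lines was not measured, although the series' design text speaks of 3 control replicates. The p-values rest on the spread between the 3 clones, with the variance moderated over all probes.

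INK4 proteins bind CDK4 and CDK6, keep D-type cyclins from activating them, and so hold RB in its growth-suppressing form. Cdkn2a is unusual in that it uses separate first exons for p16INK4a, an INK4 protein, and for ARF, an unrelated protein read in another frame that inhibits MDM2 and thereby stabilises p53. ARF loss is well known to favour transformation of B-lineage progenitors by BCR-ABL1. Both substitutions, R24C in CDK4 and R31C in CDK6, are known to make the kinase insensitive to INK4 proteins because the inhibitors no longer bind it. The question asked here was how much INK4 transcript the R/R lines carried relative to WT lines.

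Between 42.8% and 53.4% of spots were well above background in a channel, and the number of arrays limits the precision. In both genotypes all 12 B-lineage markers, counted by their brightest probe, were well above background in every channel. The same held for 5 of 6 myeloid markers with a probe in every WT channel and 4 in every R/R channel (Mpo in none). Other probes of the myeloid marker Itgam did not reach this in every channel. Of 7 T and NK markers, 3 did in every WT channel and 3 in every R/R channel. Of 4 stroma markers, 2 did in every WT channel and 1 in every R/R channel. The 4 hepatocyte markers (Alb, Afp, Ttr and Apoa1) were well above background in no channel, and neither were the erythroid markers Klf1, Epor, Alas2 and Hba-a1. None of the 12 B-lineage genes was called by limma, where 0.586% of all probes were. An unadjusted p under 0.05 was found for 2 of them, and for 19% of all 12296 genes, counted by their brightest probe.

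Both Cdkn2a probes carry the accession NM_009877, which is the ARF messenger RNA. No probe carries NM_001040654, the p16INK4a messenger RNA. These transcripts share their later exons, and probe sequences were not used here, so which of them each probe read was not settled. Both start sites, which separate the transcripts, are shown because the Cdkn2a probes hold the main difference of the family. Each window runs from 250 bases before to 50 bases after a start and is credited to RefSeq (build GRCm38.p6, minus strand, printed 5′ to 3′). The distal window, at chr4:89294570-89294869, precedes the first exon of ARF, and the proximal one, at chr4:89282143-89282442, precedes the first exon of p16INK4a.
Cdkn2a distal start (ARF): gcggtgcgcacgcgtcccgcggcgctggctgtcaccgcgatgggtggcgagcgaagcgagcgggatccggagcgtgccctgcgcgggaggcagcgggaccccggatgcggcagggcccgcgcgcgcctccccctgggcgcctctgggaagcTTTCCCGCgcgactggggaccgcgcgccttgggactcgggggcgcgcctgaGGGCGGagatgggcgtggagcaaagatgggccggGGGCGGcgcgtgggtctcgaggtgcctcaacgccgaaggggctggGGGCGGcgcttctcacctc
Cdkn2a proximal start (p16INK4a): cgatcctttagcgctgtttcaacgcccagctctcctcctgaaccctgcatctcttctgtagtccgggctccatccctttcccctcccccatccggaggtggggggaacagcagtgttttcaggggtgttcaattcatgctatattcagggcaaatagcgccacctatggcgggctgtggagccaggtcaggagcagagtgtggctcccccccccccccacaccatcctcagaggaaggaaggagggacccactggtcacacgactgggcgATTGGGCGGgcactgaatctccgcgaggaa
Capitals mark matches, on either strand, to 5 motif groups, and neighbouring matches can overlap. The groups were the E2F words TTTCCCGC, TTTCGCGC, TTTGCCGC and TTTGGCGC, the GC box GGGCGG, the CCAAT box CCAAT, the TATA box TATAAA and the E-box CACGTG. The ARF window held 1 E2F match and 3 GC boxes, and the p16INK4a window held no E2F match, 1 GC box and 1 CCAAT box, the last 2 overlapping. An E2F match was found in 2.26% of 32851 mouse promoter windows of 300 bases, a GC box in 35.7% and a CCAAT box in 37.4%. The ARF window was 77.0% G or C with 45 CpG dinucleotides and the p16INK4a window 60.3% with 12, where the medians over all windows were 52.7% and 7. Of the other members' windows, none held an E2F match. The single Cdkn2b window held 1 GC box, the windows of Cdkn2c held 4 and 0, and the Cdkn2d window held 5. These matches describe the letters alone.

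Every member probe was well above background in both channels of all 4 arrays (48 of 48 readings), and none was saturated. None of the 6 probes was called by limma (Benjamini-Hochberg adjusted p under 0.05 over all 26439 probes), and 2 had an unadjusted p under 0.05, both of Cdkn2a, as had 14.9% of all probes. Over all probes 49 were called higher in R/R and 106 lower, which is 0.185% and 0.401%. These counts were 8 and 49 with the scanner software's ratios and 3 and 29 with median centring. Without clone 1 they were 16 and 59, and without clone 3 they were 117 and 229. In 2 of the 6 member probes, again those of Cdkn2a, the 4 R/R levels all lay above the 4 WT levels, as they did in 8.84% of all probes, and no member had them all below, as 9.02% of all probes did. The 4 WT readings are repeats of 1 RNA, so this separation does not include the spread between WT lines. The ratios of 2 member probes, those of Cdkn2a, had the same sign on all 4 arrays, as had 30.1% of all probes.

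Cdkn2a had the highest ratio of the family. On the brighter probe, A_55_P2008437, the log2 ratio of R/R over WT was 1.69 in clone 1, 1.22 in clone 2, 0.54 in clone 3 and 1.62 on the pool array. These correspond to 3.24-fold, 2.33-fold, 1.46-fold and 3.08-fold more signal in R/R, so all 4 arrays were on the same side and clone 3 was the low one. The processed signal behind them was 23795 in clone 1, 19069 in clone 2, 13567 in clone 3 and 21366 in the R/R pool. The WT pool read 7144, 7710, 8991 and 7723 on the same arrays, so the lowest R/R reading was above the highest WT reading. The fitted ratio was 1.39 ± 0.21 (SE, 3 clones and 1 pool; 95% interval 0.86 to 1.92), or 2.62-fold. Its limma p was 0.00073, but the adjusted p of 0.078 missed the threshold. The fitted ratio of 19 of the 26439 probes was higher. These are bulk RNA levels, and more cells expressing the gene cannot be told apart from more RNA per cell.

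The dimmer Cdkn2a probe, A_55_P2008438, gave log2 ratios of 1.67, 1.45 and 0.42 in clones 1, 2 and 3, and 1.14 on the pool array. Clone 3 was again the low array and every value was above 0. The fitted ratio was 1.16 ± 0.24 (95% interval 0.56 to 1.75; limma adjusted p = 0.133). Between the probes the ratio differed by 0.03 in clone 1, -0.23 in clone 2, 0.12 in clone 3 and 0.49 in the pool, brighter minus dimmer, with a mean of 0.10 ± 0.30 (SD, 4 arrays). The probes thus differed by less than their own spread over arrays. Per array, the scanner software gave an error of 0.21 to 0.27 for these log2 ratios. Its own value for clone 3 was 0.59 ± 0.21 on the brighter probe and 0.47 ± 0.21 on the dimmer.

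Whether Cdkn2a passed the threshold depended on the arrays and settings used, the inclusion of clone 3 among them. Leaving out clone 3 also raised the calls over all probes, from 49 higher and 106 lower to 117 and 229. Without clone 3 the brighter Cdkn2a probe stood at 1.54 (limma adjusted p = 0.014) and the dimmer at 1.35 (adjusted p = 0.011), both past the threshold. Without clone 1 they stood at 1.25 (adjusted p = 0.083) and 1.04 (adjusted p = 0.206). Over the alternatives run, the adjusted p ranged from 0.011 to 0.242 for the brighter probe and from 0.011 to 0.468 for the dimmer. On the clones alone the brighter probe had 1.15 ± 0.21 (adjusted p = 0.090) and the dimmer 1.18 ± 0.24 (adjusted p = 0.103). With no dye term in the fit both probes were past the threshold, at 1.27 (adjusted p = 0.011) and 1.17 (adjusted p = 0.016). An intensity trend in the variance gave an adjusted p of 0.049 for the brighter probe.

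**Figure D1:**
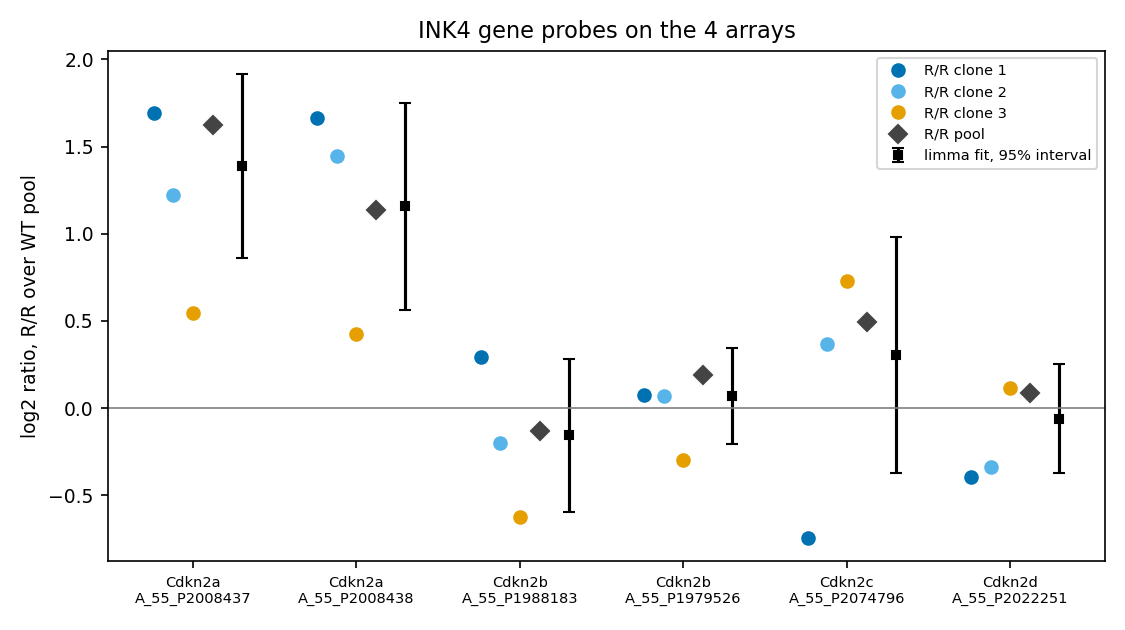
Log2 ratio of R/R over the WT pool (vertical axis) for the 6 INK4 gene probes (horizontal axis). Circles are R/R clones, diamonds the R/R pool array with its sign turned, and squares the limma fit with its 95% interval. Both Cdkn2a probes lie above 0 on all 4 arrays with clone 3 lowest, whereas the other 4 probes have arrays on both sides of 0. Of all probes tested, 30.1% had the same sign on all 4 arrays.

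Cdkn2b, which encodes p15INK4b, lies next to Cdkn2a on chromosome 4. Its brighter probe, A_55_P1988183, had log2 ratios of 0.29, -0.20 and -0.63 in clones 1, 2 and 3 and -0.13 on the pool array. The fitted value was -0.15 ± 0.18 (95% interval -0.59 to 0.28; limma adjusted p = 0.718). Clone 1 was above the WT pool and the other 3 arrays below it. The dimmer probe, A_55_P1979526, gave 0.08, 0.07, -0.29 and 0.19 in the same order. Its fit was 0.07 ± 0.11 (95% interval -0.20 to 0.35; adjusted p = 0.796), and its sign turned on the clones alone, to -0.049. On both probes clone 3 was the lowest array. The processed signal of the dimmer probe was only 38.9 to 79.5 in either channel.

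Cdkn2c encodes p18INK4c, which is known for restraining the cycle of maturing B-lineage and plasma cells. Its probe, A_55_P2074796, had log2 ratios of -0.75 in clone 1, 0.37 in clone 2, 0.73 in clone 3 and 0.49 in the pool. Clone 1 had less Cdkn2c signal than the WT pool and the other 3 R/R samples had more. The processed signal was 538 in clone 1 against 953 in WT on that array, and 1832 in clone 3 against 1024. The fit was 0.31 ± 0.27 (95% interval -0.37 to 0.98, limma adjusted p = 0.636). It lay midway between the pool array and the clones' mean of 0.12, a mean over clones on opposite sides of 0. Without clone 1 it was 0.52 (adjusted p = 0.332). The range over the 3 clones was 1.48, and 1.60% of all probes tested had a wider one. The median range over all probes was 0.32.

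Cdkn2d encodes p19INK4d, a different protein from ARF despite the similar name. Its probe, A_55_P2022251, had log2 ratios of -0.39, -0.34 and 0.11 in clones 1, 2 and 3 and 0.08 on the pool array. Clones 1 and 2 lay below 0, and clone 3 and the pool above it. The fit was -0.06 ± 0.13 (95% interval -0.37 to 0.25; limma adjusted p = 0.850). The interval for this gene was narrower than those of Cdkn2a, Cdkn2c and the brighter Cdkn2b probe.

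The R/R clones are separate lines, whereas the 4 WT readings of a probe are repeats of 1 RNA and hold technical noise alone. Levels of a channel were taken after quantile matching of the arrays' average signal and can carry dye bias. On this log2 scale the WT pool ranged by 0.11 to 0.35 over the 4 arrays across the 6 probes. The clones ranged by 1.00 and 1.59 on the Cdkn2a probes, by 0.92 and 0.41 on the Cdkn2b probes, by 1.41 for Cdkn2c and by 0.50 for Cdkn2d. The spread between WT lines, which the clones' ranges would have to be set against, was not measured. Clone 1 exceeded clone 3 by 1.15 and 1.24 in the Cdkn2a log2 ratios and by 0.92 and 0.37 in those of Cdkn2b. In Cdkn2c and Cdkn2d the difference ran the other way, at -1.48 and -0.51 (clone 1 minus clone 3). With 1 array per clone these differences have no test.

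**Figure D2:**
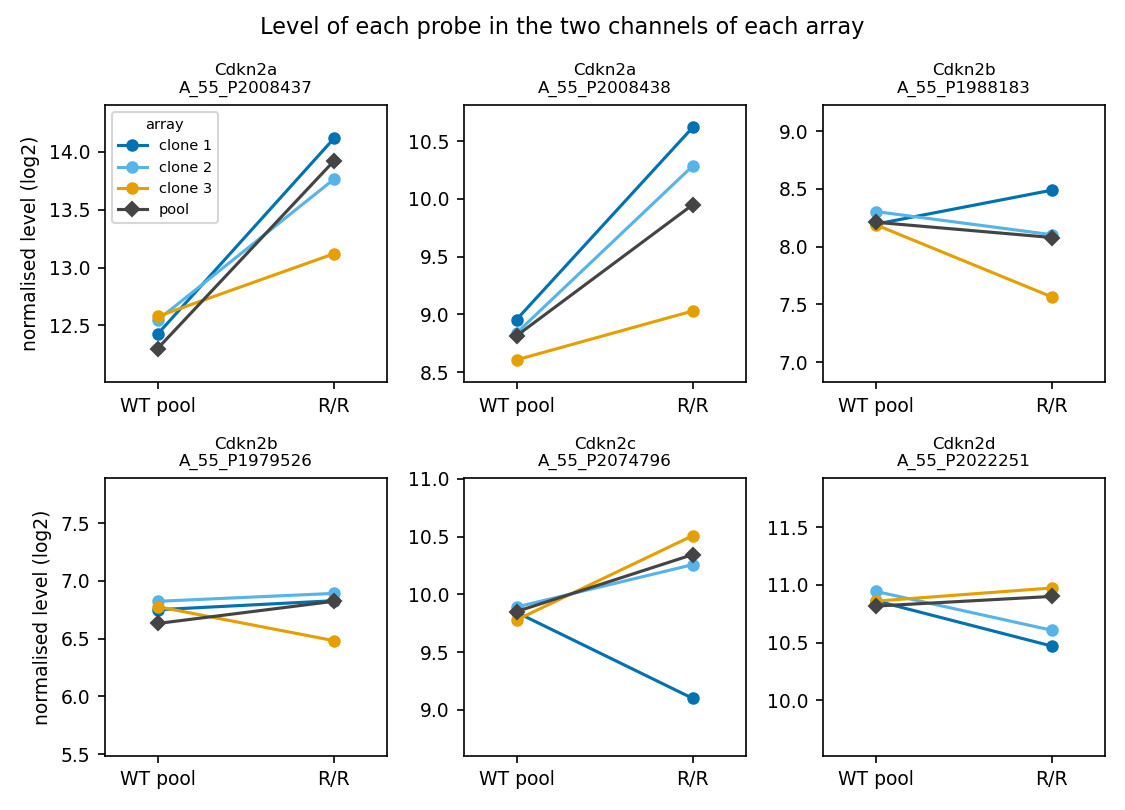
Normalised log2 level of each INK4 gene probe in the WT pool channel and in the R/R channel of the same array, joined by a line. Each panel spans the same number of log2 units but has its own position, so heights are not compared between panels. The 4 WT readings are repeats of 1 RNA and show technical noise alone, so their closeness is no measure of the spread between WT lines. On both Cdkn2a probes every line climbs from WT to R/R.

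The pool array did not sit at the same place among the clones in every gene. For the brighter Cdkn2a probe the R/R pool had a log2 ratio of 1.62, where the mean of the 3 clones' ratios before taking logs gives 1.23. For the dimmer probe these values were 1.14 and 1.27. For Cdkn2c they were 0.49 and 0.24, and for Cdkn2d 0.08 and -0.19. The labels do not say whether these clones made up the pool, and its array has the dyes reversed.

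Genes next to the members were taken from the order of genes in the RefSeq table, as the 2 nearest on each side with a tested probe. Mtap, which encodes the methionine salvage enzyme methylthioadenosine phosphorylase and is often lost together with Cdkn2a in tumours, was the nearest tested gene on the side of Cdkn2a away from Cdkn2b. It had log2 ratios of 0.86, 0.62 and 0.46 in clones 1, 2 and 3 and 0.37 on the pool array. All 4 were above 0, with clone 1 highest, as for Cdkn2a. The lowest array differed, being the pool for Mtap and clone 3 for Cdkn2a. The fit was 0.51 ± 0.11 (limma adjusted p = 0.138), and with no dye term it was 0.58 (adjusted p = 0.020), where the range over alternatives was 0.020 to 0.578. Beyond it, the interferon gene Ifna1 had 0.02 ± 0.11. On the other side of Cdkn2b, Zfp352 had 0.34 ± 0.16 (adjusted p = 0.403) and the RNA-binding protein gene Elavl2 0.01 ± 0.09, with 2 of 4 R/R readings well above background. Around Cdkn2c, the fitted values were 0.08 for the ubiquitin ligase gene Rnf11, 0.00 for the endocytic adaptor gene Eps15, -0.01 for Faf1 and -0.25 for Dmrta2. Dmrta2 took -1.71 in clone 1 and 0.42 and 0.15 in clones 2 and 3, so clone 1 was the low array there as for Cdkn2c. Its R/R reading was well above background on 3 of 4 arrays. Around Cdkn2d, Kri1 had 0.08, the autophagy protease gene Atg4d 0.20 and the choline transporter-like gene Slc44a2 -0.24. None of these neighbours was called.

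**Figure D3:**
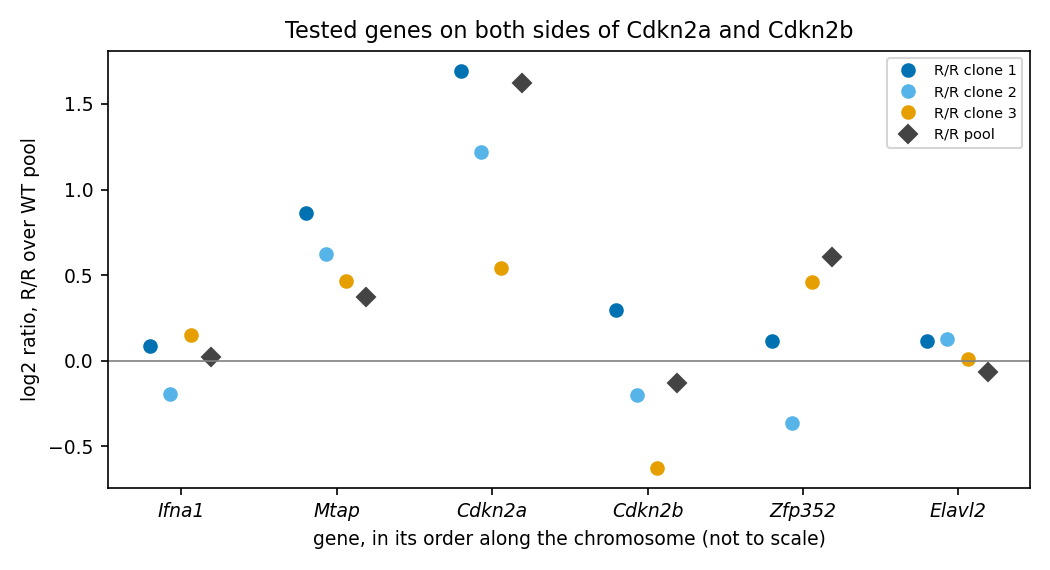
Log2 ratio of R/R over the WT pool (vertical axis) for Cdkn2a, Cdkn2b and their tested neighbours in chromosomal order, brightest probe of each gene, with circles for clones and diamonds for the pool array. Mtap and Cdkn2a lie above 0 on all 4 arrays, and the 4 other genes do not. Of all probes tested, 30.1% had the same sign on all 4 arrays.

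Of 16 tested genes for the proteins INK4 inhibitors act through (CDK4, CDK6, cyclins D and E, CDK2, the RB family and E2F factors), 1 rose, none fell and 15 were not called. Over all genes tested, by their brightest probe, 0.26% were called higher and 0.61% lower. The list's median log2 ratio was 0.07, where that of all genes tested was 0.00. The called gene was E2f6, a repressive E2F without an RB-binding domain, at 1.01 ± 0.12 (limma adjusted p = 0.044), with 1.08, 0.66 and 1.11 in the clones and 1.06 on the pool array. Leaving out clone 1 ended that call (0.97, adjusted p = 0.104), as did the scanner software's ratios (adjusted p = 0.168) and median centring (0.99, adjusted p = 0.104). The adjusted p ranged from 0.0029 to 0.168 over the alternatives. The INK4 targets themselves had 0.21 ± 0.09 for Cdk4 and 0.06 ± 0.09 for Cdk6. The D-type cyclins, their activating partners, had ratios of both signs, and none was called. Cyclin D1 (Ccnd1) stood at -0.91 ± 0.24 (adjusted p = 0.189), from -1.31 in clone 2 to -0.07 in clone 1. Cyclin D3 (Ccnd3) stood at 0.54 ± 0.15 (adjusted p = 0.189), with a second probe at 0.40, and cyclin D2 (Ccnd2) at -0.16 ± 0.09.

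On the ARF side, 11 genes around MDM2, p53 and nucleophosmin were tested, of which 1 fell, none rose and 10 were not called (median -0.05), where 0.61% of all genes were called lower. The one that fell was Bbc3, a p53 target that encodes the death protein PUMA, at -1.41 ± 0.12 (limma adjusted p = 0.019). Its values were -1.67, -1.21 and -1.38 in the clones and -1.39 on the pool array, with no clone standing apart. Its call ended under the scanner software's ratios (-1.68, adjusted p = 0.105) and under median centring (-1.44, adjusted p = 0.0996), and the adjusted p ranged from 0.00055 to 0.105 over the alternatives. Other p53 targets in the list, Bax at 0.01 ± 0.14 and Cdkn1a at 0.55 ± 0.36, were not called. Cdkn1a ran from -0.72 in clone 3 to 1.14 in clone 1. The ARF target Mdm2 had -0.17 ± 0.10, p53 itself (Trp53) 0.01 ± 0.11 and the nucleolar ARF partner Npm1 -0.06 ± 0.11 on its brightest probe. The ribosomal DNA transcription factor gene Ubtf, also bound by ARF, had -0.33 ± 0.20 on its brightest probe and 0.40 ± 0.11 on another, so its probes had opposite signs.

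Known repressors of the Ink4-Arf locus, mainly Polycomb proteins, had 18 tested genes, of which none was called by limma and 1 had an unadjusted p under 0.05, against 19% of all genes. Their median was -0.10, with 12 below 0 and 6 above it, while 6177 of all 12296 genes lay below 0. The smallest p belonged to the chromobox genes Cbx2, at -0.28 ± 0.09 (adjusted p = 0.265), and Cbx8, at -0.22 ± 0.09, and to the T-box gene Tbx3 at -0.24 ± 0.11. Bmi1, the best known repressor, had -0.41 and -0.22 in clones 1 and 2, 0.53 in clone 3 and -0.18 on the pool array. Clone 3 was thus the high one for Bmi1 and the low one for Cdkn2a. The fit for Bmi1 was -0.11 ± 0.19 (adjusted p = 0.819), and its second probe, at -0.50, -0.59, 0.32 and -0.13, also had clone 3 highest. Bmi1 was singled out after its values were seen. Known activators had 13 tested genes, none called and 2 with an unadjusted p under 0.05 (median 0.04). That count of 2 in 13 is near the 19% of all genes and is no result about the list. The genes with the smallest p were the ETS factor gene Ets1, at -0.40 ± 0.12 (adjusted p = 0.213), and Runx1, at -0.33 ± 0.13, with a second Runx1 probe at -0.05. Junb followed at -0.18 ± 0.09, and the ARF activator Dmtf1 had 0.06 ± 0.10.

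The list of CDK inhibitors outside the INK4 family also took in genes for other CDK-linked proteins, Cdkn3 and Cables1. It had 4 tested genes and no call by limma, with 2 at an unadjusted p under 0.05, where 19% of all genes had one. The CDK-associated phosphatase gene Cdkn3 stood at 0.44 ± 0.10 (adjusted p = 0.159) with all 4 ratios above 0, the lowest 0.13 (clone 2) and the highest 0.55 (pool). Cdkn1b, which encodes p27KIP1, stood at -0.54 ± 0.13 (adjusted p = 0.164) with all 4 below 0, the lowest -0.83 (clone 2) and the highest -0.25 (clone 3). Such agreement in sign on all 4 arrays was found in 30.1% of all probes. Cables1 stood at -0.29 ± 0.14, and only 1 of its 4 R/R readings was well above background.

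**Figure D4:**
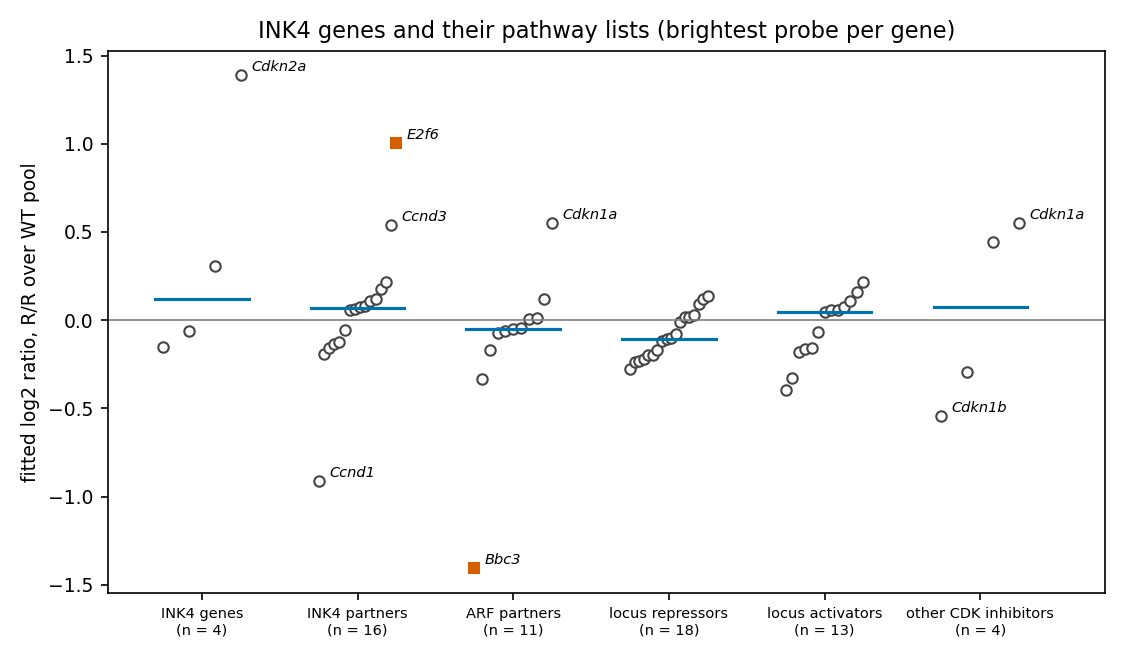
Fitted log2 ratio of R/R over the WT pool (vertical axis) for the 4 INK4 genes and the tested genes of the 5 lists, one symbol per gene by its brightest probe, with list medians as lines. Filled squares are genes past the limma threshold, E2f6 and Bbc3, and Cdkn2a is the highest open circle.

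The genes whose 4 log2 ratios lay nearest to those of each member were found by the root mean square difference over the arrays. A low array shared with the member follows from this choice and is no separate result. For Cdkn2a they were the semaphorin gene Sema7a (0.30), the orphan nuclear receptor gene Nr4a1 (0.31) and Eaf2 (0.32), and no gene came within 0.20. Sema7a had 1.73, 1.31 and 0.28 in clones 1, 2 and 3, and Nr4a1 had 1.77, 1.62 and 0.12. Eaf2 lay between 1.08 in clone 3 and 1.88 in clone 1, and its fit of 1.38 ± 0.16 passed the threshold (limma adjusted p = 0.043). For Cdkn2c the nearest were the galectin gene Lgals1 (0.11), the nuclear envelope gene Syne2 (0.17) and the small GTPase gene Rala (0.20), each with clone 1 below 0 and the other arrays above on its brightest probe. Lgals1 had -0.68, 0.30, 0.56 and 0.39. For Cdkn2b 138 genes lay within 0.20, the nearest being Gm6377 (0.06), Map2k3os (0.10) and Hint2 (0.10). For Cdkn2d 614 did, led by Pak3, Gins3 and Irs2 (each 0.06), so many genes lay as near to these 2 members.

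**Figure D5:**
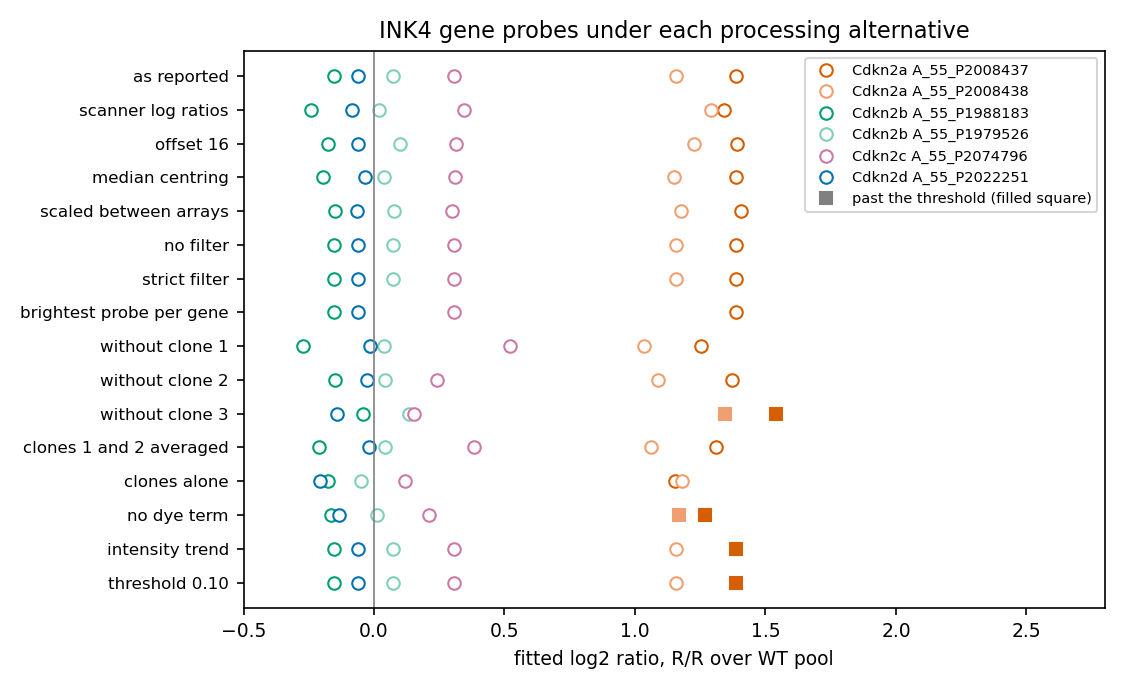
Fitted log2 ratio (horizontal axis) of the 6 INK4 gene probes under each processing alternative (vertical axis). Filled squares passed the threshold of that alternative, and open circles did not. The Cdkn2a probes stay between 1.04 and 1.54, and the other 4 probes stay within 0.52 of 0.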

How the data were processed

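Intensities were extracted with Agilent Feature Extraction 11.5, per the submitters' processing notes. Per the file headers, the intensity columns hold uncorrected median spot and background signals and processed signals, which are background-subtracted and dye-normalised. The log10 values deposited are ratios of processed Cy5 over Cy3. A log2 table deposited by the authors, whose processing is not given in the sources used here, follows R/R over WT. Its row numbers match no probe column, so it gave counts alone.

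With limma 3.58.1 in R 4.3.3, normexp (offset 50) was applied to the median signals and then loess within each array, with control spots at weight 0 and outlier-flagged spots left out. A probe was kept if one genotype's channel was well above background on at least 3 of 4 arrays, and probes were fitted separately, with a genotype and a dye term (2 residual degrees of freedom). Probes rather than genes were fitted, since probes of 1 gene can read different transcripts. P-values are two-sided, adjusted by Benjamini-Hochberg over all probes kept, and the fit was tested on simulated data. Symbols came from RefSeq accessions (27656 of 55681 probes). Genes were named by list (those called, otherwise the 3 with the smallest p), chromosomal order and likeness, and some beyond that after their values were seen. The members, lists and rules were chosen with earlier results of these data known. A few genes the rules name are not reported here.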

Additional observations from a re-analysis of the deposited data

How the results depend on the processing

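The Cdkn2a probes kept their direction under every alternative run, and Cdkn2c, Cdkn2d and the brighter Cdkn2b probe kept theirs without passing. Leaving out each clone in turn gave 1.25 to 1.54 for the brighter Cdkn2a probe and 1.04 to 1.35 for the dimmer. Both passed the threshold without clone 3. The brighter also passed with no dye term (1.27), with an intensity trend and at a threshold of 0.10 (1.39 in both). The dimmer also passed with no dye term (1.17). The dimmer Cdkn2b probe turned to -0.049 on the clones alone. Calls over all probes, 49 higher and 106 lower as reported, were 8 and 49 with the scanner software's ratios and 3 and 29 with median centring. They were 632 and 798 with no dye term and 130 and 248 at a threshold of 0.10. One probe per gene gave 30 higher, for fewer features tested. Leaving out each clone gave 16 to 117 higher and 59 to 229 lower. In the pathway lists, with 1 gene higher and 1 lower as reported, calls were 0 and 0 under the scanner ratios and likewise under median centring, and 2 and 3 with no dye term. With clones 1 and 2 averaged 2 were lower, and leaving out each clone gave 0 to 2 higher. The cause of these moves was not tested. The deposited log2 table gave 50 higher and 106 lower probes and could not be used for named genes. Each ratio already pairs R/R with the WT pool on the same array. No pairing of lines beyond that was possible, because the WT pool was the same on every array and the R/R pool has no clone number.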

Other observations

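Cdkn1a and Ets2 had the widest range over the clones among the tested genes of the 5 pathway lists, 1.86 and 1.78 on the log2 scale, and are described for that reason, after their values were seen. Cdkn1a, which encodes the CDK inhibitor p21, had log2 ratios of 1.14, 1.03 and -0.72 in clones 1, 2 and 3 and 0.61 on the R/R pool array, a fit of 0.55 ± 0.36 (limma adjusted p = 0.524). The ETS factor gene Ets2 had 0.88, 0.87, -0.90 and 0.15 in the same order, a fit of 0.22 ± 0.36 (limma adjusted p = 0.803). In both genes clone 3 was the low array, as it was for Cdkn2a and Cdkn2b, although Cdkn2a stayed above 0 there.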
